A study of Mus musculus with 32 samples.

Results

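Genes for 10 enzymes that modify and cross-link collagen were followed in a line of mouse stromal cells, EL08 (also called EL08-1D2), grown with azacitidine (16 libraries) or without it (16 libraries). They are the 5 lysyl oxidase genes Lox, Loxl1, Loxl2, Loxl3 and Loxl4, the 3 lysyl hydroxylase genes Plod1, Plod2 and Plod3, and P4ha1 and P4ha2, which encode catalytic subunits of prolyl 4-hydroxylase. They were chosen by name for what their proteins do, with earlier results of these data known. All 10 were found among the 21829 mouse genes of the deposited table. Azacitidine is a cytidine analogue that inhibits DNA methylation and is given in myelodysplastic syndromes, and the comparison asks what it does to the stromal cells. Every library came from the same line, so the groups differ by the drug alone as far as the labels go. Dose, duration and the number of separate cultures are not given in the labels used here, so p-values here refer to the spread among these libraries alone, which may be technical.

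Collagen chains are hydroxylated on prolines and lysines while still in the endoplasmic reticulum. Prolyl 4-hydroxylation lets the triple helix hold at body temperature, and lysyl hydroxylation prepares sites for sugars and for stable cross-links. Both reactions need iron, oxygen, ascorbate and 2-oxoglutarate. After secretion the copper-dependent lysyl oxidases turn lysines and hydroxylysines of collagen and elastin into aldehydes, which then condense into the cross-links that stiffen fibrils and elastic fibres.

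The libraries held 1226861 to 5039721 unique molecular identifiers (UMIs, each marking 1 captured cDNA molecule) with azacitidine and 818619 to 3210801 without it. Levels are given as CPM, the UMI count scaled to a common library size after TMM normalisation, and a gene was called when its adjusted p in edgeR's quasi-likelihood test was under 0.05. Replicate numbers were divided into 4 runs (numbers 1 to 4, 5 to 8, 9 to 12 and 13 to 16). With group means removed, libraries with azacitidine had a mean Pearson correlation of 0.34 within runs and -0.16 between them. Without the drug these were 0.08 and -0.1, so likeness within runs, taken over all tested genes, was slight there. Untreated Lox still averaged 390.4 CPM in numbers 5 to 8 and 695.4 CPM in numbers 13 to 16. In addition 5 libraries, numbers 1, 2 and 4 with azacitidine and 1 and 2 without it, stood apart, by a measure not shown here. They were deep, with 5039721, 4458343 and 4015944 UMIs with the drug and 3210801 and 2455232 without it. Number 7 with azacitidine (4218313 UMIs) and number 10 without it (2489108 UMIs) were deep too but were not set apart. The labels give no reason for the likeness within runs or for these 5 libraries, so values within runs stand beside the main ones. The summed level of 10 stromal markers was 4145.7 to 7891.7 CPM with azacitidine (median 5172.9) and 4934.9 to 7180.0 CPM without it (median 5728.8). Of the 9 tested 2 were called higher and 2 lower, beside 3.65% and 2.00% of all tested genes. Thy1 had 26 UMIs with azacitidine and 0 without it.

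Relative to the other genes, 3 lysyl oxidase genes fell with azacitidine and 1 lysyl hydroxylase gene, Plod1, rose. Lox fell by 25.5%, Loxl2 fell by 24.2% and Loxl1 fell by 19.5%, while Plod1 rose by 24.3%. Loxl3, Loxl4, Plod2, Plod3, P4ha1 and P4ha2 were not called. The 4 of 10 called stand beside 5.65% of all 9344 tested genes, of which 2.00% were called lower and 3.65% higher. Since the 10 were chosen with earlier results of these data known, these shares are a description without a test. In none of the 10 did the 16 libraries with azacitidine lie wholly apart from the 16 without it, as they did for 0.289% of the tested genes. The median log2 fold change of the 10 was -0.09, beside 0.00 over the tested genes. Where libraries were scaled by their spike-in RNA, the median tested gene moved up by 0.31 (log2), Plod1 was still called as higher, Lox stood at -0.10 and Loxl2 at -0.07 without a call, and Loxl1 turned to 0.01.

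**Figure D1:**
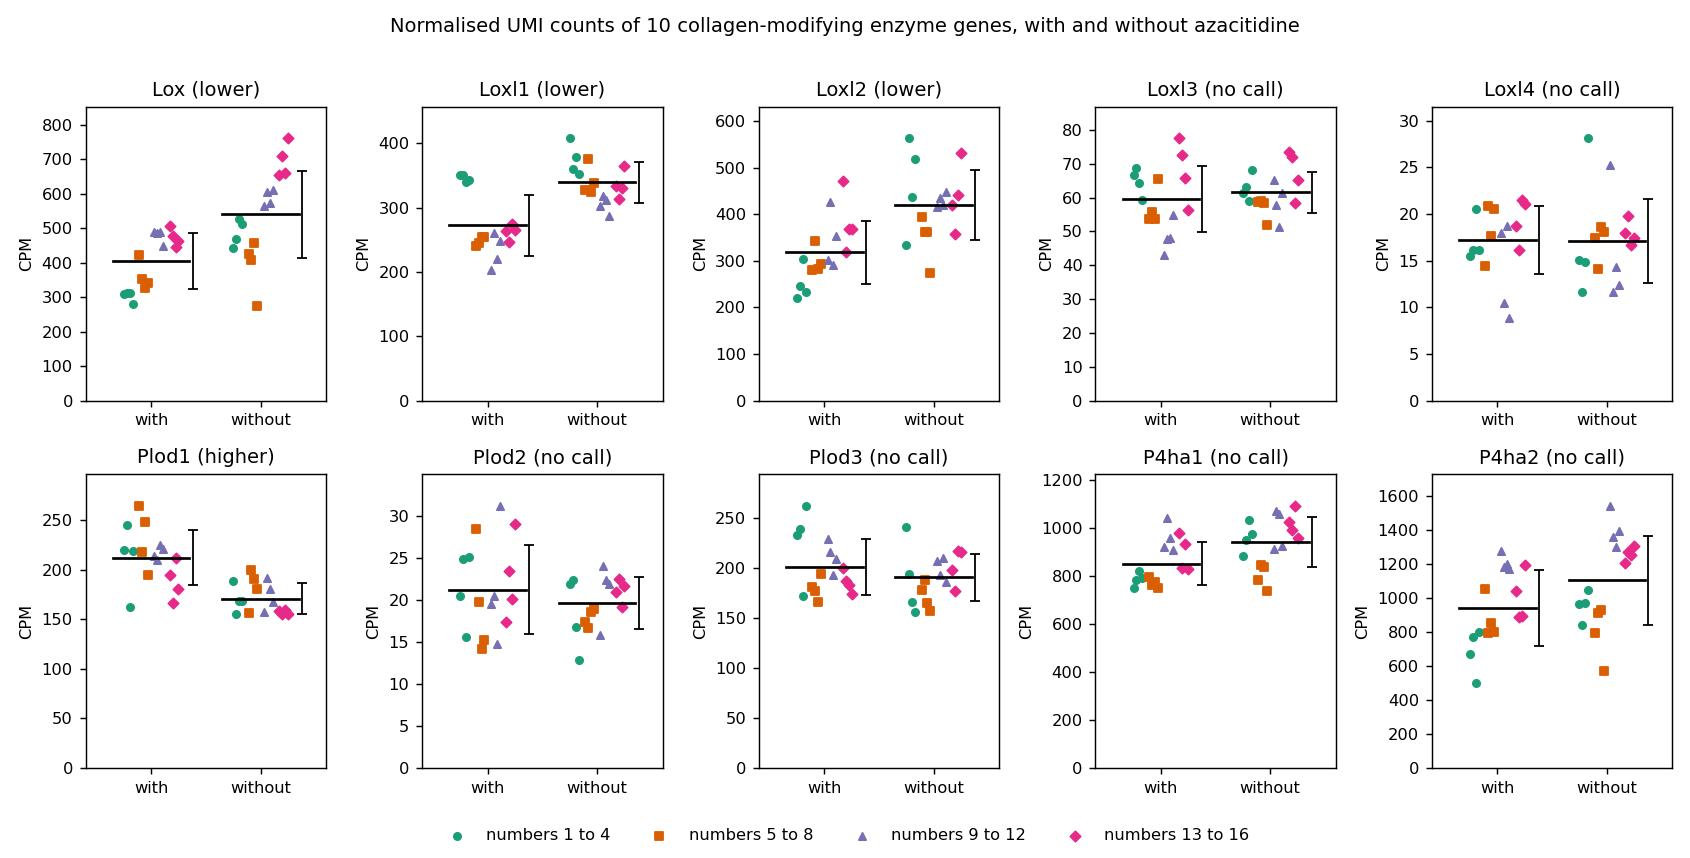
Level of each of the 10 genes (CPM, each axis linear and starting at 0) in 16 libraries with and 16 without azacitidine; a point is 1 library, marked by its run of replicate numbers, and mean and SD are drawn over the points. Lox, Loxl1 and Loxl2 lie lower and Plod1 higher with the drug (under spike-in scaling Loxl1 turned to 0.01), and for Lox, P4ha1 and P4ha2 the runs stand at different levels within each group.

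A sequence feature bears on how the values of Loxl2 can be read. Chromosome 14 of mm10 carries a copy of Loxl2, annotated as the unprocessed pseudogene Gm21451 (69390854 to 69480287, plus strand, upstream of Loxl2). The first 2348 bases of its transcript are identical, with 0 mismatches, to positions 62 to 2409 of the Loxl2 transcript Loxl2-201, after which they part. The following lines, from GENCODE release M21, show the last 60 shared bases in lower case and the 30 bases after them in capitals, from positions 2350 to 2439 of Loxl2-201 and 2289 to 2378 of Gm21451-201.
Loxl2: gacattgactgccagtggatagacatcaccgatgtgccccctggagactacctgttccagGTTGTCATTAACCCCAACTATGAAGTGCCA
Gm21451: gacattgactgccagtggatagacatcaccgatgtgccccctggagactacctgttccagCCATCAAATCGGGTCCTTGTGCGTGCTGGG
Reads from the shared part cannot be assigned to either gene, and how the authors treated them is not given in the sources used here.

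A further set is shown for the density of CpG, the dinucleotide that DNA methyltransferases modify, before the start of Plod1 and of its relative Plod3, which was not called. RefSeq's promoter table (GRCm38.p6, the mm10 assembly) held 5 of the 10 genes: Loxl4, Plod1, Plod3, P4ha1 and P4ha2. The 250 bases before the start are shown 5′ to 3′ on each gene's own strand with CG in capitals, at chr4:147936777-147937026 (minus strand) for Plod1 and at chr5:136986769-136987018 (plus strand) for Plod3.
Plod1: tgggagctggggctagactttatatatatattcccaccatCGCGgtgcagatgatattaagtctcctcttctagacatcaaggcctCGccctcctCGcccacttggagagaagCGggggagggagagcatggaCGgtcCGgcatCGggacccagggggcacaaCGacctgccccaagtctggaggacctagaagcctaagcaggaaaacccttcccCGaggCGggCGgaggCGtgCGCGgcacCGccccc
Plod3: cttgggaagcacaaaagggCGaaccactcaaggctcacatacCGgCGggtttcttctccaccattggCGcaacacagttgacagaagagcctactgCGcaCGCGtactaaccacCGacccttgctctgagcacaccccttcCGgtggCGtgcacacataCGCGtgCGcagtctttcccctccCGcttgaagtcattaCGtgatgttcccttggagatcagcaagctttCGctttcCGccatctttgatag
Plod1 held 16 CG and Plod3 17. The median was 6 over 32536 such windows and 16 over those of the 6951 tested genes with a window. It was 8 over those of 256 genes called higher and 14 over those of 133 genes called lower, and genes without a window are left out. At least as many CG as in Plod1 stood in 25.6% of all windows, and as in Plod3 in 23.7%. P4ha2 held 21, P4ha1 24 and Loxl4 27, and 92.2% of all windows held at least 1 CG. The window of P4ha2 (chr11:54100674-54100923) lies inside the GENCODE bounds of the gene given below, so it does not precede the GENCODE start. The core hypoxia response motif ACGTG, read on both strands, occurred once each in the windows of Plod3, P4ha1 and P4ha2, was not in those of Plod1 and Loxl4, and was in 16.7% of all windows. These are letters in a window. Methylation was not measured in the data used here.

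Lox encodes the founding lysyl oxidase, which cross-links fibrillar collagen and elastin (ENSMUSG00000024529, chromosome 18, 52516067 to 52529867, mm10, minus strand). Its level ran from 279.0 to 505.6 CPM with azacitidine, with a median of 433.8, and from 273.5 to 760.2 CPM without it, with a median of 543.7. The groups overlapped, but all 16 libraries with azacitidine lay below the median of those without. Lox averaged 403.3 ± 81.0 CPM with and 540.1 ± 126.3 CPM without azacitidine (SD, n = 16 each), a log2 fold change of -0.42 (SE 0.11; edgeR, adjusted p = 0.0141). In the 4 runs the log2 fold change was -0.68, -0.12, -0.30 and -0.56 (SE 0.10 each). With and without libraries did not overlap in numbers 1 to 4, 9 to 12 and 13 to 16, where Lox averaged 302.6 ± 15.8 against 487.3 ± 38.6, 477.5 ± 20.0 against 587.1 ± 23.9 and 472.3 ± 25.9 against 695.4 ± 50.2 CPM (SD, n = 4 each). In numbers 5 to 8 they overlapped, at 360.8 ± 43.3 CPM with and 390.4 ± 80.3 CPM without the drug, and library 8 without azacitidine was the lowest of all 32. P4ha2, which was not called, lay apart in the same runs as Lox. The share of all tested genes that lie apart within a run was not counted, for Lox or the other genes. Lox was the only one of the 10 genes whose change differed between the runs by edgeR's interaction test (adjusted p = 0.0349), against 3.02% of all tested genes. The unadjusted p of that test was under 0.05 for Loxl2 (0.00761), Loxl1 (0.0118) and P4ha2 (0.0139) too. Without the 5 libraries that stood apart P4ha2 passed the interaction test (adjusted p = 0.0165) and Lox did not (adjusted p = 0.0912). Between the groups Lox was not called without these 5 libraries (log2 fold change -0.37, adjusted p = 0.0575) or without numbers 1 to 4 (-0.35, adjusted p = 0.105).

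Loxl1 encodes the family member tied to elastic fibres (ENSMUSG00000032334, chromosome 9, 58287738 to 58313186, minus strand). With azacitidine it ran from 202.5 to 351.1 CPM with a median of 257.8, and without it from 287.1 to 408.1 CPM with a median of 332.1. With the drug 12 of the 16 libraries, all those of numbers 5 to 16, fell below every library without it. The other 4, numbers 1 to 4, stood between 339.3 and 351.1 CPM, close to the untreated level. The means were 272.6 ± 47.2 CPM with and 339.3 ± 31.9 CPM without azacitidine (SD), a log2 fold change of -0.31 (SE 0.07; edgeR, adjusted p = 0.00227). The change was -0.12, -0.45, -0.39 and -0.35 in the 4 runs (SE 0.07 each). The groups did not overlap within any run, but how many of all tested genes do so was not counted. In numbers 1 to 4 they lay barely apart, at most 351.1 CPM with and at least 352.6 CPM without the drug. The change in that run was not called (edgeR, adjusted p = 0.315). The interaction test did not pass for Loxl1 (adjusted p = 0.183). Without numbers 1 to 4 the log2 fold change was -0.40 (edgeR, adjusted p = 8.15e-07).

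Loxl2 encodes an enzyme that acts on the collagen IV of basement membranes as well as on fibrils (ENSMUSG00000034205, chromosome 14, 69609068 to 69695834, plus strand). It ran from 221.2 to 470.8 CPM with azacitidine, with a median of 302.1, and from 273.5 to 563.1 CPM without it, with a median of 419.9. The groups overlapped widely, and 14 of the 16 treated libraries lay below the untreated median. Loxl2 averaged 318.8 ± 67.6 CPM with and 419.6 ± 75.1 CPM without the drug (SD), a log2 fold change of -0.40 (SE 0.09; edgeR, adjusted p = 0.0055). The difference was largest in numbers 1 to 4, at -0.89 (SE 0.15), where the groups did not overlap, a trait not counted over all tested genes. In the other runs it was -0.22, -0.32 and -0.20 (SE 0.15 each) with overlapping groups, and without numbers 1 to 4 it was -0.25 and not called (edgeR, adjusted p = 0.106). The interaction test gave an adjusted p of 0.142. Sums of the libraries of each run and group also lost the call, at a log2 fold change of -0.41 (edgeR with a run term, adjusted p = 0.0875). The copy Gm21451 was listed at 71.9 ± 15.6 CPM with and 102.1 ± 23.3 CPM without azacitidine, a log2 fold change of -0.51 (SE 0.11; edgeR, adjusted p = 0.00113). With the UMIs of both summed the log2 fold change was -0.42 (SE 0.10; edgeR, adjusted p = 0.00389).

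Loxl3 and Loxl4, the remaining lysyl oxidase genes, were not called. Loxl3 (ENSMUSG00000000693, chromosome 6, 83034173 to 83052562, plus strand) ran from 43.0 to 77.5 CPM with azacitidine, with a median of 57.8, and from 51.4 to 73.3 CPM without it, with a median of 60.1. Its log2 fold change was -0.04, with a 95% interval from -0.17 to 0.10 (edgeR, adjusted p = 0.858). The last 1297 bases of Loxl3 overlap the end of Htra2 on the other strand, and without a stated use of strand the reads of the pair cannot be told apart there. Htra2, which encodes a mitochondrial protease, had a log2 fold change of 0.10 (SE 0.06) and was not called either (edgeR, adjusted p = 0.449). Loxl4 (ENSMUSG00000025185, chromosome 19, 42593982 to 42612813, minus strand) was seen with 640 UMIs in all libraries with azacitidine and 432 in those without. It ran from 8.9 to 21.5 CPM with the drug (median 17.8) and from 11.6 to 28.1 CPM without it (median 17.1). Its log2 fold change was 0.05, with an interval from -0.18 to 0.28 (edgeR, adjusted p = 0.911). The intervals of both genes lie above the log2 fold changes of -0.31 to -0.42 found for the 3 decreased family members.

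**Figure D2:**
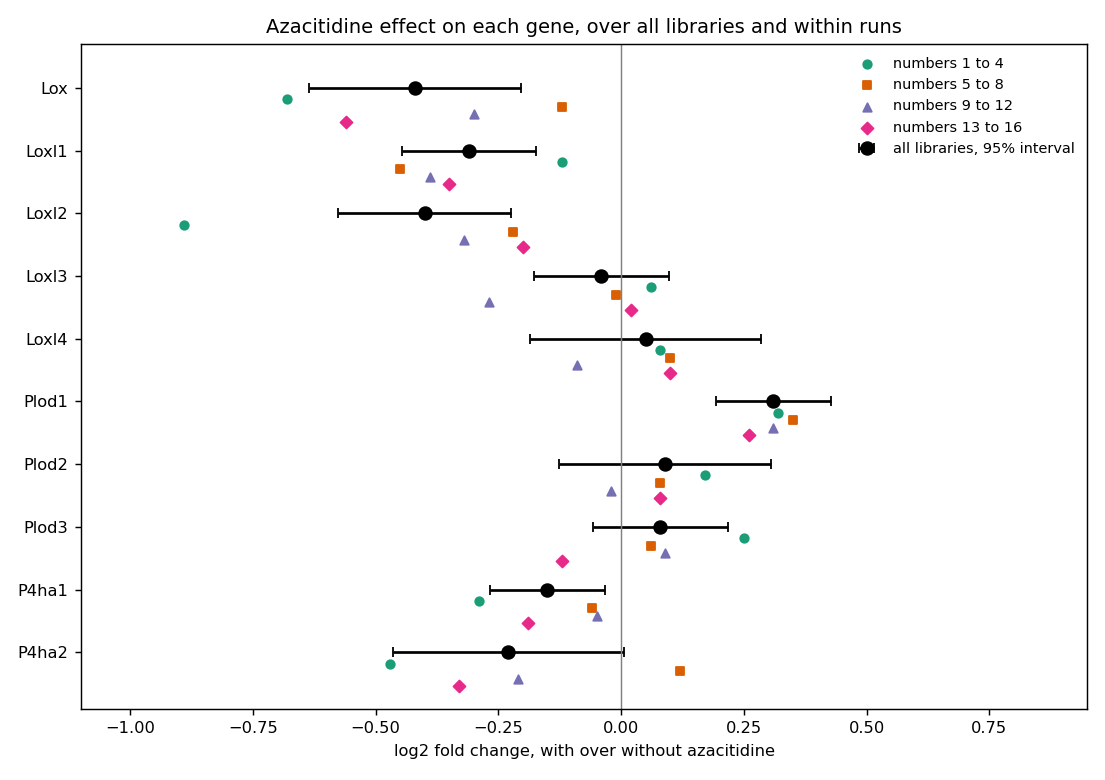
Log2 fold change (with over without azacitidine) of each gene over all libraries (black, with its 95% interval) and within the 4 runs of replicate numbers (coloured points). Lox, Loxl1 and Loxl2 lie below 0 in each run (under spike-in scaling over all libraries Loxl1 turned to 0.01), Plod1 lies between 0.26 and 0.35 in each, and P4ha2 lies above 0 in numbers 5 to 8 and below 0 in the other runs.

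Plod1, the lysyl hydroxylase of residues in the collagen helix, went the other way (ENSMUSG00000019055, chromosome 4, 147909753 to 147936767, minus strand). It ran from 162.1 to 264.5 CPM with azacitidine, with a median of 215.7, and from 155.4 to 199.2 CPM without it, with a median of 167.9. With the drug 11 of the 16 libraries lay above every library without it, and 14 above the untreated median. The means were 212.1 ± 27.9 CPM with and 170.7 ± 15.3 CPM without azacitidine (SD), a log2 fold change of 0.31 (SE 0.06; edgeR, adjusted p = 0.000322). The 4 runs gave 0.32, 0.35, 0.31 and 0.26 (SE 0.10 each), and the interaction test gave an adjusted p of 0.976. The groups lay apart in numbers 9 to 12 and 13 to 16, which was not counted over all tested genes. Plod1 was called under each of the 13 alternatives to the test, spike-in scaling among them, where its log2 fold change was 0.63 (edgeR, adjusted p = 0.0422). Under that scaling the SE of Plod1 was 0.2 and the median tested gene also moved up by 0.31. It called 354 genes higher and 1 lower.

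Plod2, which hydroxylates lysines in the telopeptides at the ends of the chains, was scarce (ENSMUSG00000032374, chromosome 9, 92542223 to 92608428, plus strand). With azacitidine it ran from 14.2 to 31.2 CPM with a median of 20.2, and without it from 12.9 to 24.0 CPM with a median of 20.0. Its log2 fold change was 0.09, with an interval from -0.12 to 0.30 (edgeR, adjusted p = 0.748). Plod3, whose protein also adds sugars to hydroxylysine (ENSMUSG00000004846, chromosome 5, 136987019 to 136996648, plus strand), ran from 165.6 to 262.5 CPM with azacitidine (median 193.5) and from 155.8 to 241.0 CPM without it (median 190.6). Its log2 fold change was 0.08, with an interval from -0.05 to 0.21 (edgeR, adjusted p = 0.623). The first 1003 bases of Plod3 overlap Znhit1 on the other strand, which was not called either (log2 fold change -0.12, SE 0.05; edgeR, adjusted p = 0.167). Within numbers 1 to 4 Plod3 stood at 0.25 (SE 0.10) and in numbers 13 to 16 at -0.12 (SE 0.11). Neither gene's interval reached the estimate of 0.31 for Plod1. Differences between the family members were not tested.

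P4ha1 and P4ha2 encode alternative catalytic subunits that pair with P4hb to form prolyl 4-hydroxylase. P4ha1 (ENSMUSG00000019916, chromosome 10, 59323296 to 59373304, plus strand) ran from 751.7 to 1042.1 CPM with azacitidine, with a median of 827.4, and from 738.1 to 1094.4 CPM without it, with a median of 954.2. Of the 16 treated libraries 13 lay below the untreated median. Its log2 fold change was -0.15 (SE 0.06) and was not called (edgeR, adjusted p = 0.152). In the runs it was -0.29, -0.06, -0.05 and -0.19 (SE 0.07 each), and the groups lay apart in numbers 1 to 4 only. P4ha2 (ENSMUSG00000018906, chromosome 11, 54100095 to 54131665, plus strand) ran from 503.4 to 1276.9 CPM with azacitidine, with a median of 891.4, and from 573.0 to 1545.4 CPM without it, with a median of 1128.0. The log2 fold change of -0.23 (SE 0.12) was not called (edgeR, adjusted p = 0.34), and the runs gave -0.47, 0.12, -0.21 and -0.33. Its groups did not overlap in numbers 1 to 4, 9 to 12 and 13 to 16. The share of all tested genes that lie apart within a run was not counted. Both genes were called as lower once the runs entered the fit as a term (edgeR, adjusted p = 0.0122 for P4ha1 and 0.0388 for P4ha2), but neither was called with the same term on sums over runs (edgeR, adjusted p = 0.289 for P4ha1 and 0.22 for P4ha2). Under spike-in scaling both stood above 0, at 0.16 and 0.11, without a call.

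**Figure D3:**
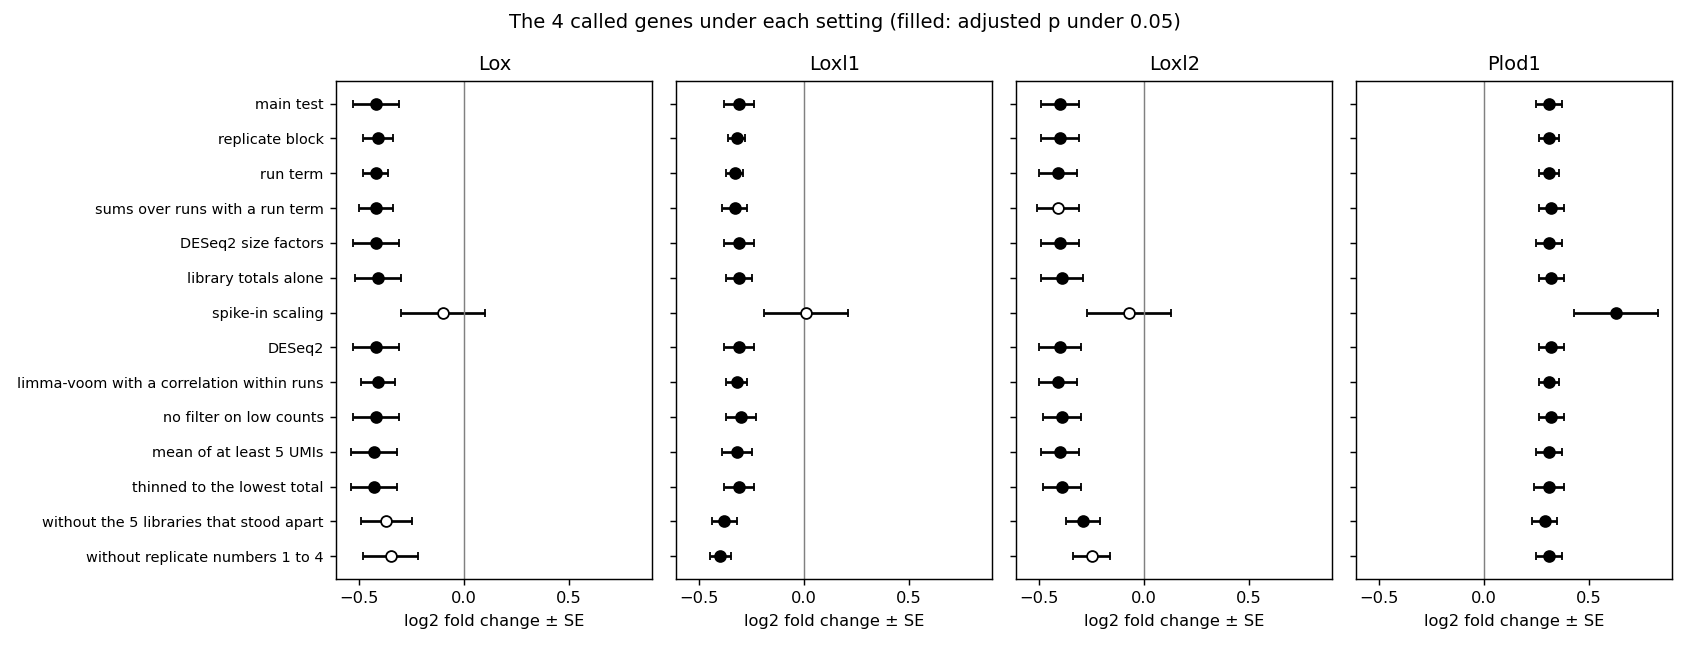
Log2 fold change ± SE of the 4 called genes in the main test and under 13 alternatives (filled points have an adjusted p under 0.05). Plod1 is called throughout, while spike-in scaling puts Loxl1 at 0.01 and ends the calls of Lox, Loxl1 and Loxl2, and leaving out numbers 1 to 4 ends those of Lox and Loxl2. Spike-in scaling also moves the median tested gene up by 0.31. Lox is also open without the 5 libraries that stood apart, and Loxl2 with sums over runs.

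Across libraries the genes did not move as 1 block. After removal of the group means the log2 CPM of Lox, P4ha1 and P4ha2 went together over the 32 libraries, with Pearson correlations of 0.79 between Lox and P4ha1, 0.85 between Lox and P4ha2 and 0.67 between P4ha1 and P4ha2. Loxl2 stood near them, at 0.65 with Lox, 0.64 with P4ha1 and 0.46 with P4ha2. Loxl1 was at -0.52 with Lox, -0.28 with P4ha1 and -0.61 with P4ha2. These values rest largely on levels shared by the libraries of a run. With the run means removed as well those among Lox, P4ha1 and P4ha2 were 0.36, 0.55 and 0.08. Those of Loxl2 were then 0.41, 0.44 and -0.0, and those of Loxl1 -0.16, 0.19 and -0.00. Lox, Loxl2, Plod2, P4ha1 and P4ha2 are known targets of hypoxia-inducible factors. Their correlation with the mean of 19 tested hypoxia-inducible genes was 0.87 for Lox, 0.50 for Loxl2, 0.37 for Plod2, 0.79 for P4ha1 and 0.92 for P4ha2. With run means removed it was 0.47 for Lox, -0.06 for Loxl2, 0.55 for Plod2, 0.18 for P4ha1 and 0.70 for P4ha2. For the remaining genes this correlation was -0.03 for Plod1, -0.57 for Loxl1, -0.22 for Loxl3, -0.28 for Loxl4 and 0.3 for Plod3. With run means removed it was 0.59 for Plod1, -0.07 for Loxl1, -0.3 for Loxl3, -0.3 for Loxl4 and 0.35 for Plod3. Being computed from libraries that share runs, they are descriptions without a test.

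**Figure D4:**
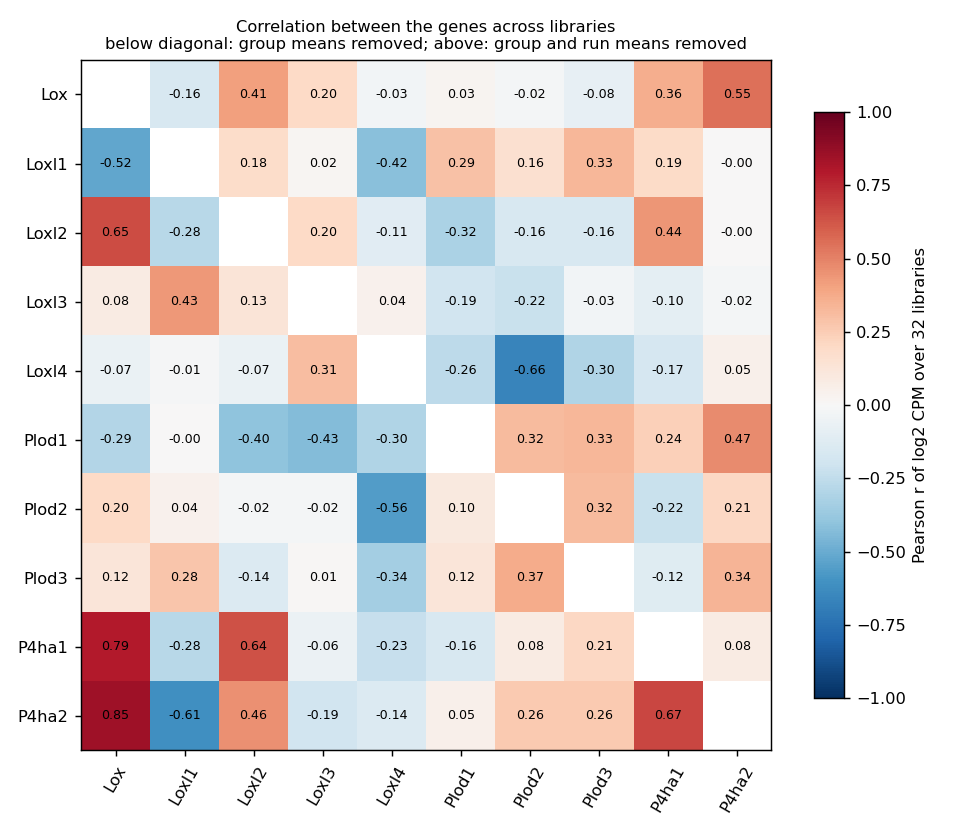
Pearson correlation of log2 CPM (pseudocount 1) between the 10 genes over 32 libraries, with the group means removed below the diagonal and the group and run means removed above it. Lox, P4ha1 and P4ha2 have the highest values below the diagonal, between 0.67 and 0.85. Loxl2 is at 0.65 with Lox, 0.64 with P4ha1 and 0.46 with P4ha2. Loxl1 is at -0.61 with P4ha2, a value that is -0.00 above the diagonal.

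The genes whose pattern was most like each called gene, by the same correlation over 32 libraries, differed from one to the next. For Lox they were Bsg, Pgm1 and Higd1a, at 0.96, 0.94 and 0.93, or 0.84, 0.72 and 0.74 with run means removed. For Loxl1 they were Ogn, Mrgprf and Psme2, at 0.90, 0.90 and 0.89, or 0.26, 0.53 and 0.69 with run means removed. Loxl2 was closest to its own copy Gm21451, followed by Errfi1 and H19, at 0.94, 0.75 and 0.72, or 0.89, 0.49 and 0.38 with run means removed. Those of Plod1 were Rnh1, Esd and Gabarap, at 0.65, 0.63 and 0.63, or 0.49, 0.64 and 0.62 with run means removed. Of these 12 genes Gm21451 alone was called between the groups.

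The enzymes' partners and substrates were read from 8 lists of related genes, and all but 1 of these had a median log2 fold change between -0.06 and 0.04, beside 0.00 over all tested genes. Among 16 tested substrates and organisers of the cross-linked matrix 7 were called lower and 2 higher, with a median of -0.29. Of all tested genes 2.00% were called lower and 3.65% higher. Col3a1, a fibrillar collagen chain, averaged 2849.3 ± 410.8 CPM with and 4459.5 ± 439.9 CPM without azacitidine, and Col5a3, which joins type V collagen, 37.2 ± 6.1 CPM with and 58.4 ± 10.6 CPM without it (SD, log2 fold change -0.65 each). Fn1, the fibronectin gene, had a log2 fold change of -0.47 (SE 0.08), and Lum, a proteoglycan of collagen fibrils, one of 2.36 (SE 0.25). Sums over runs with a run term left 3 of the list called lower and 1 higher, and spike-in scaling 0 lower and 1 higher. In 10 of 14 alternatives 1 gene of the list, not 2, was called higher. In 4 lists no gene was called (edgeR), against 5.65% of all tested genes, a share at which few calls are due in small lists. Tested in them were 8 other prolyl and lysyl hydroxylation genes, 18 procollagen chaperone and export genes, 4 propeptidase genes and 6 genes of copper supply. At an unadjusted p under 0.05 there were 2 of these genes, both lower chaperone and export genes. DESeq2 called 0 of the 4 lists and limma-voom 1, and the replicate block, the run term and the fit without the 5 libraries that stood apart each called 2 chaperone and export genes lower. P4hb, the shared partner of P4ha1 and P4ha2, stood at -0.02 (SE 0.05), and Serpinh1, the collagen chaperone, at -0.05 (SE 0.07). Atox1, which hands copper on for loading into secreted enzymes, stood at 0.03 (SE 0.05).

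The counts below stand beside 2.00% of all tested genes called lower and 3.65% called higher. Of 10 tested genes of iron, ascorbate and 2-oxoglutarate supply 2 were called lower, the isocitrate dehydrogenase genes Idh2, at -0.32 (SE 0.06), and Idh1, at -0.33 (SE 0.08), whose enzymes make 2-oxoglutarate. Spike-in scaling left neither called. Of 19 tested hypoxia-inducible genes Ndufa4l2 alone was called, with a log2 fold change of 3.89 (SE 0.24). A count of 1 in 19 is near the 5.65% called over all tested genes, and the median of the list was -0.06. Of 12 tested genes that respond to transforming growth factor beta, a known inducer of Lox and Plod2, Tagln was called lower at -1.01 (SE 0.17) and Tgfbi higher at 0.48 (SE 0.14), with a median of -0.05. 

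**Figure D5:**
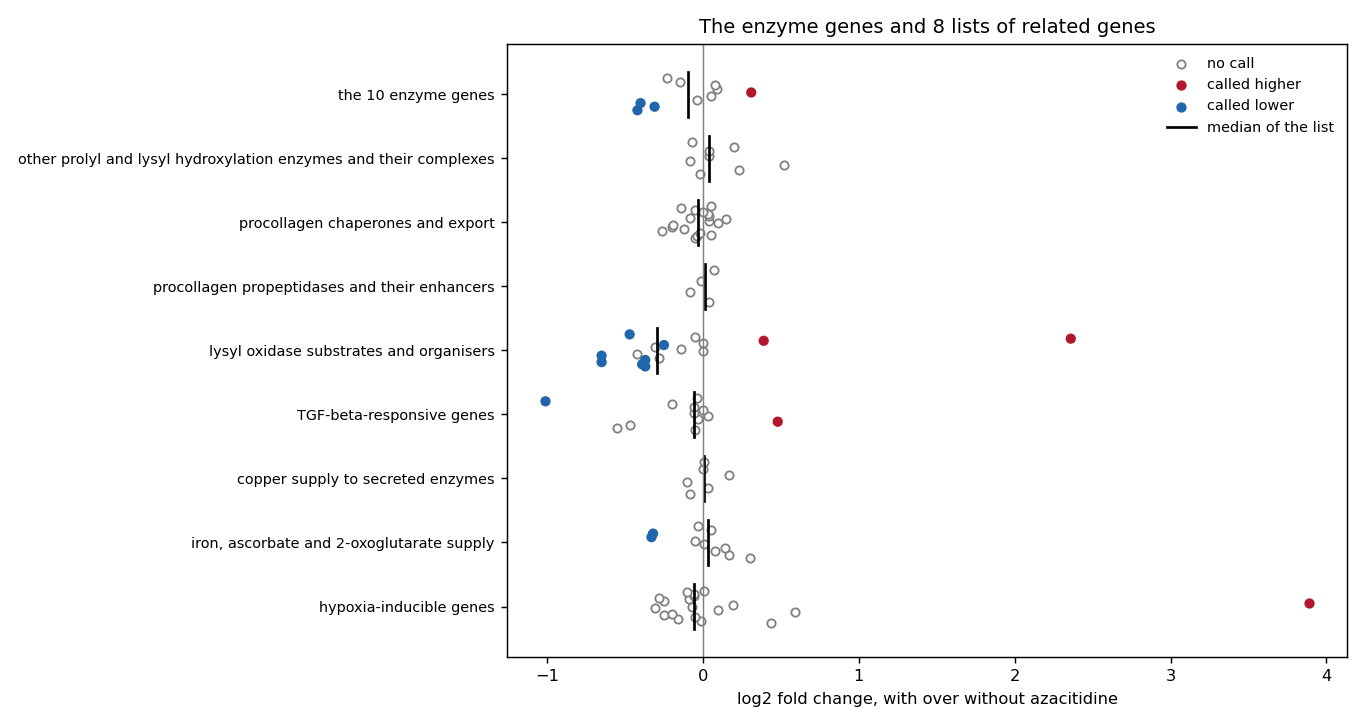
Log2 fold change (with over without azacitidine) of the 10 enzyme genes and of the tested genes in 8 lists of related genes; points are genes, filled when called, and the bar is the median of a list. The substrates and organisers have a median of -0.29 and 7 genes called lower, a count that is 0 under spike-in scaling, while the other lists have medians between -0.06 and 0.04. Of all tested genes 2.00% were called lower and 3.65% higher.

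Some markers of other cell types moved with the drug. The summed level of 6 epithelial markers was 71.9 to 148.4 CPM in libraries with azacitidine and 2.9 to 9.9 CPM in those without, with 3 of 3 tested genes called higher. Over all tested genes 3.65% were called higher. Krt8 had 2391 UMIs with and 50 without the drug, while the defining markers Epcam and Cdh1 had 1 and 10 UMIs with azacitidine and 0 and 4 without it. The 5 blood cell markers in the table summed to 25.0 to 47.0 CPM with and 14.6 to 32.9 CPM without azacitidine, 2 of 2 tested genes being called higher. The markers differed: Cd53 had 521 UMIs with and 199 without the drug, and Cd68 621 and 216. Itgam had 161 and 143, Lyz2 12 and 14 and Ptprc 4 and 1, all as raw counts not scaled to library size. The 4 endothelial markers in the table summed to at most 3.0 CPM with and 1.1 CPM without it. Their part in the changes of the enzyme genes was not tested, and in bulk RNA fewer cells of a kind and less RNA per cell cannot be told apart.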

How the data were processed

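Polyadenylated RNA of 32 samples of the line was made into barcoded cDNA with UMIs and a Nextera XT library, per the labels' protocols. STAR 2.4.0, bedtools 2.17.0 and mm10 are named in the submitters' processing notes; annotation, identifier collapsing and strand are not given in the sources used here. The authors deposited raw UMI counts per gene. The 68 spike-in rows (0.106% of UMIs) stayed out of library sizes and tests. Symbols and coordinates came from GENCODE release M21 (mm10), which held 21506 of the 21829 gene identifiers; 2 list genes were found under newer symbols (Ccn1, Ccn2).

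Groups came from the titles. EdgeR 4.0.16 (TMM, default filter by group, robust quasi-likelihood, two-sided, Benjamini-Hochberg over 9344 tested genes, no covariate) compared 16 with 16 libraries; all 10 enzyme genes passed the filter. SEs come from the fold change and F, and 95% intervals from the SE. An interaction of run and azacitidine (3 degrees of freedom) was fitted likewise. DESeq2 1.42.0 and limma 3.58.1 served as alternatives, with R 4.3.3, Python 3.11.15, numpy 2.4.6, pandas 2.3.3 and matplotlib 3.10.9. The tests were tried on simulated counts. UMI totals set the counting precision. With group means removed, levels also correlated with the log2 library total, at 0.58 for Loxl1, -0.48 for Loxl2, -0.4 for Lox and 0.34 for Plod1. The part of library totals in the changes of these genes was not tested.

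The members, lists, runs and tests were chosen with earlier results of these data known. Named are all 10 enzyme genes, from each list the called genes with the lowest p (at most 4), and the 3 genes most correlated with each called enzyme gene at 10 CPM or more. P4hb, Serpinh1, Atox1 and the overlapping genes were added after their values were seen. A 14th alternative, an adjusted p under 0.01, changes only counts of calls.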

Additional observations from a re-analysis of the deposited data

Results flagged for a closer look

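The change of Lox with azacitidine differed between the 4 runs of replicate numbers by edgeR's interaction test (adjusted p = 0.0349), with log2 fold changes of -0.68, -0.12, -0.30 and -0.56. Without the 5 libraries that stood apart the test no longer passed for Lox (adjusted p = 0.0912) and passed for P4ha2 (adjusted p = 0.0165), and under spike-in scaling it passed for none of the 10 genes (Lox, adjusted p = 0.769).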

How the results depend on the processing

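Plod1 kept its direction and call under the 13 alternatives that changed the fit, between 0.29 and 0.63. Loxl1 kept both under 12, between -0.40 and -0.30, and spike-in scaling turned it to 0.01. Lox lost its call under 3 and Loxl2 under 3, both without a change of sign. Spike-in scaling also turned Loxl3 to 0.29, P4ha1 to 0.16 and P4ha2 to 0.11, and thinning turned Loxl4 to -0.0081. Leaving out each of the 32 libraries in turn, an alternative added after the data were seen, as were the sum of Loxl2 with Gm21451 and the repeats of the interaction test, kept the calls of the 4 genes and added none among the 10. It gave 1 member higher, 3 members lower, 312 to 371 genes higher and 149 to 197 genes lower.

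Against 341 genes higher and 187 lower, the replicate block gave 518 and 379, a run term 563 and 430 (5 enzyme genes lower, with P4ha1 and P4ha2), limma-voom with a correlation within runs 405 lower, sums over runs 86 lower (2 enzyme genes, Lox and Loxl1), no filter 718 higher, thinning 158 and 71, and an adjusted p under 0.01 gave 215 and 81. Spike-in scaling gave 354 higher and 1 lower, with 1 enzyme gene higher and 0 lower, and 21 in place of 282 interaction calls. Without numbers 1 to 4 only 1 enzyme gene, Loxl1, was lower. With the replicate block P4ha1 was called as well (edgeR, adjusted p = 0.017), a call that sums over runs did not give (adjusted p = 0.289). Over 14 alternatives the lists of related genes held 0 to 8 substrates lower and 1 to 2 higher, 0 to 2 chaperone and export genes lower, 0 to 1 propeptidases in either direction, 0 to 1 other hydroxylation genes lower, 0 to 2 supply genes of iron, ascorbate and 2-oxoglutarate lower and 0 to 1 higher, 0 to 2 hypoxia-inducible genes in either direction, and 0 to 4 genes responding to transforming growth factor beta lower and 0 to 1 higher. Same-numbered libraries of the groups correlated between -0.292 and 0.832, over 0.1 for 12 of 16 numbers, and 7 of 32 libraries correlated best with their own number, and the labels give no shared source for a number. Since not every number passed 0.1, the samples were not treated as paired; whether some numbers share a source is not known. The causes of these differences were not tested. Loxl4 and Plod2 were the most thinly counted of the 10, with 640 and 790 UMIs with azacitidine and 432 and 539 without it.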
